A study of Mus musculus with 15 samples.

Results

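The 40 genes described here are known markers and machinery of cell proliferation, from the D-type cyclins that carry a cell out of rest to the motor proteins of the mitotic spindle. They were taken by name from a list by function, with no measured value in the rule, and all 40 were found among the 33058 named genes of the table. Kidney RNA of 15 male mice, C57BL/6 by the labels and C57BL/6J by the study's methods, was sequenced with 1 library per mouse. The 3 groups of 5 mice were young (3-month-old), 12-month-old and old (24-month-old), and the labels name no engineered allele and no treatment. The study's methods state that mice were anesthetized with urethane before tissue was taken and that 1 kidney per mouse was frozen in pieces. They add that sequencing used residual kidney tissue, and do not say which part of the kidney it was. They also give a single day of sacrifice for the young and the old animals and do not describe the 12-month-old mice. Expression is given as FPKM, the fragments of a transcript scaled to its length in kilobases and to the mapped fragments of the library, summed over the transcripts of a gene.

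A cell that divides first raises D-type cyclins, which with their kinases release E2F transcription factors from the pocket proteins. Cyclin E and CDK2 then start S phase, and the MCM helicase opens the licensed origins of replication. Cyclin A and cyclin B with CDK1, helped by Polo and Aurora kinases, drive mitosis, and the spindle checkpoint holds the anaphase promoting complex back until every chromosome is attached. Most cells of the adult kidney are at rest, and tubule cells re-enter the cycle mainly after injury. In a whole tissue, more cells that express a gene and more RNA per cell cannot be told apart.

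The libraries held 5.03 to 8.03 gigabases of aligned sequence each, from the coverage of all transcripts. By age this was 5.03 to 6.13 in young, 5.84 to 8.03 in 12-month-old and 6.07 to 7.33 gigabases in old mice. Named genes above 0 numbered 23354 to 24198, 24462 to 25350 and 24747 to 25435 at 3, 12 and 24 months. Every young library thus held fewer genes above 0 than every later one. The part of depth in the levels of the low genes was not tested. The kidney label was borne out by its markers. The summed level of 5 proximal tubule genes was 1580 to 2055 FPKM in every mouse, and that of 4 genes of the thick limb and distal tubule was 1054 to 1360 FPKM. No member was listed at 0 in any mouse. The spindle kinase Ttk, with a mean of 0.093 FPKM over all mice, fell short of the filter of 0.1 FPKM, so 39 of the 40 members were tested among 21132 genes. Cdc6 and Ccne1 were just inside it, at 0.119 and 0.128 FPKM.

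The promoters of several mitotic genes share short motifs through which they are switched on together late in the cell cycle. The CCAAT box is bound by NF-Y, and the cell cycle homology region, TTTGAA, is bound by the MuvB core of the DREAM complex. RefSeq promoter windows from 250 bases before to 50 bases after the gene's start (GRCm38.p6) were at hand for 32 of the 40 members. The letters CCAAT stood on either strand in 25 of the 32 (78.1%) and in 37.4% of all 32851 promoter windows. TTTGAA stood in 13 (40.6%, against 17.9% of all windows), and the E2F-type core TTCCCGC in 5 (15.6%, against 4.60%). These are matches of letters and not measured binding. The windows below belong to the 5 genes with an entry among the 8 members whose young and 12-month-old mice did not overlap, which are described further on. They are printed 5′ to 3′ on the strand of the gene, with CCAAT and TTTGAA, or ATTGG and TTCAAA where the match is on the other strand, in capitals.
Cdc20, chr4:118437294-118437593, minus strand: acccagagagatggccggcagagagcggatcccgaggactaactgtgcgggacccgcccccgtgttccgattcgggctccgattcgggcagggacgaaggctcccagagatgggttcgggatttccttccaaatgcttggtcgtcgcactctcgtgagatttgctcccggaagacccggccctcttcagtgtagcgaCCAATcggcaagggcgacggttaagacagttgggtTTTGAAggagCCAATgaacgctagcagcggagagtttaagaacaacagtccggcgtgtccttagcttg
Plk1, chr7:122159185-122159484, plus strand: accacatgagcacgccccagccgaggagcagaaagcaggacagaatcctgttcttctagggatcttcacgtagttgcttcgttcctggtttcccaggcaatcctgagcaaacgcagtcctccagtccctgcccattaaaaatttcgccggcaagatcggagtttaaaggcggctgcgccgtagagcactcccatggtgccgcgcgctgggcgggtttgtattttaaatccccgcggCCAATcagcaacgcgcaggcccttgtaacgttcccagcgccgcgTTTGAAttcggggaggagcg
Mki67, chr7:135716330-135716629, minus strand: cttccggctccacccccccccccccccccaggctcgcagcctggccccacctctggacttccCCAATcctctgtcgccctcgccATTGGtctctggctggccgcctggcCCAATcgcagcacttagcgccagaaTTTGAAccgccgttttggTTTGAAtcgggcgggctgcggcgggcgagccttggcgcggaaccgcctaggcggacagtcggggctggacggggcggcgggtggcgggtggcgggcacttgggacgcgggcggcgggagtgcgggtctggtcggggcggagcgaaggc
Cenpf, chr1:189688037-189688336, minus strand: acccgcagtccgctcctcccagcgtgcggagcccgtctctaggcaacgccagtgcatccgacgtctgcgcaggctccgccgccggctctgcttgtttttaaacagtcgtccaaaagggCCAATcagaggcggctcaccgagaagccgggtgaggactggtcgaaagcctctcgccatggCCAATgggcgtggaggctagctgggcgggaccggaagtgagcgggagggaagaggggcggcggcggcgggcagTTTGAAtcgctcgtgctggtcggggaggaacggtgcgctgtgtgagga
Mcm5, chr8:75109259-75109558, plus strand: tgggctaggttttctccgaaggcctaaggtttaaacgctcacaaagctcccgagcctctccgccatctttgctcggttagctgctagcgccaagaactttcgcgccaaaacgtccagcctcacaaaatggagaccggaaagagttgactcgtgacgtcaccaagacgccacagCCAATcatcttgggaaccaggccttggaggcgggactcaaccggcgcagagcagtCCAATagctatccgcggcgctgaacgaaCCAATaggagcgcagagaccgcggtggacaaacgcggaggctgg
Cdc20, Plk1, Mki67 and Cenpf held both motifs, and Mcm5, a gene of S phase, held the CCAAT box alone.

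Most proliferation genes were low in the kidney, and a few D-type cyclin, replication and checkpoint genes stood well above the rest. Ccnd1, cyclin D1, was the most abundant member at a mean of 58.2 FPKM over the 15 mice, and Ccnd3, cyclin D3, followed at 20.3 FPKM. The replication clamp gene Pcna, which also serves DNA repair, stood at 12.2 FPKM, and the checkpoint gene Bub3 at 11.5 FPKM. Mcm7, Tyms, Mcm6, Cdk2, Mcm2 and Ccnd2 lay between 3.26 and 5.57 FPKM. The genes that are used mostly in mitosis were much lower, with Mki67, the antigen of dividing cells, at 0.476 FPKM, topoisomerase Top2a at 0.799 FPKM and the mitotic kinase Cdk1 at 0.218 FPKM. From the deposited coverage, and with a read length of 150 bases, the level of Ccnd1 rested on the equivalent of 3045 to 13895 reads in a mouse, that of Mki67 on 52.3 to 370.3, and that of Cdk1 on 1.79 to 47.9. Differences of the lowest genes therefore rest on few reads.

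Between young and 12-month-old kidneys, the members leaned upward, and Ccnd1 passed the test across all genes. Of the 39 members tested, 37 were higher at 12 months, with a median log2 fold change of 0.35. The median of all 21132 genes was 0.13, and 31 of the 39 members lay above it. Ccnd1 was the 1 member called by limma at a Benjamini-Hochberg adjusted p under 0.05 over all genes, where 0.492% of all genes were called. At an unadjusted p under 0.05 there were 14 members (35.9%), all higher, while 17.8% of all genes met this limit and 13.9% were higher at it. The young and the 12-month-old mice did not overlap in 8 members (20.5%), all higher at 12 months, against 5.39% of all genes in either direction and 4.44% that were higher.

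Between young and old kidneys, 2 members rose. Ccnd1 and the helicase subunit Mcm4 were called at an adjusted p under 0.05, where 2.21% of all genes were called. Of the 39 members, 27 were higher in old mice, with a median log2 fold change of 0.31 against 0.11 over all genes. Above that all-gene median lay 26 members. At an unadjusted p under 0.05 there were 6 members (15.4%), all higher, where 18.5% of all genes met this limit and 13.8% were higher at it. The ages did not overlap in 3 members (7.69%), Ccnd1, Mcm4 and Rrm1, all higher, near the 6.34% of all genes in either direction and the 5.04% that were higher. By these counts the members in old mice stood close to the background of all genes. No member was called lower.

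Between 12-month-old and old kidneys, limma called no member at an adjusted p under 0.05, where 0.00946% of all genes were called. Of the 39 members, 16 were higher in old mice, and the median log2 fold change was -0.07 against -0.02 over all genes. At an unadjusted p under 0.05 there were 2 members, Mcm6 and Mcm7, both lower, against 7.66% of all genes, with 4.08% lower. No member was without overlap between these ages, where 1.40% of all genes were. The 3 comparisons share mice, so their values stand side by side and do not count as separate evidence.

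**Figure D1:**
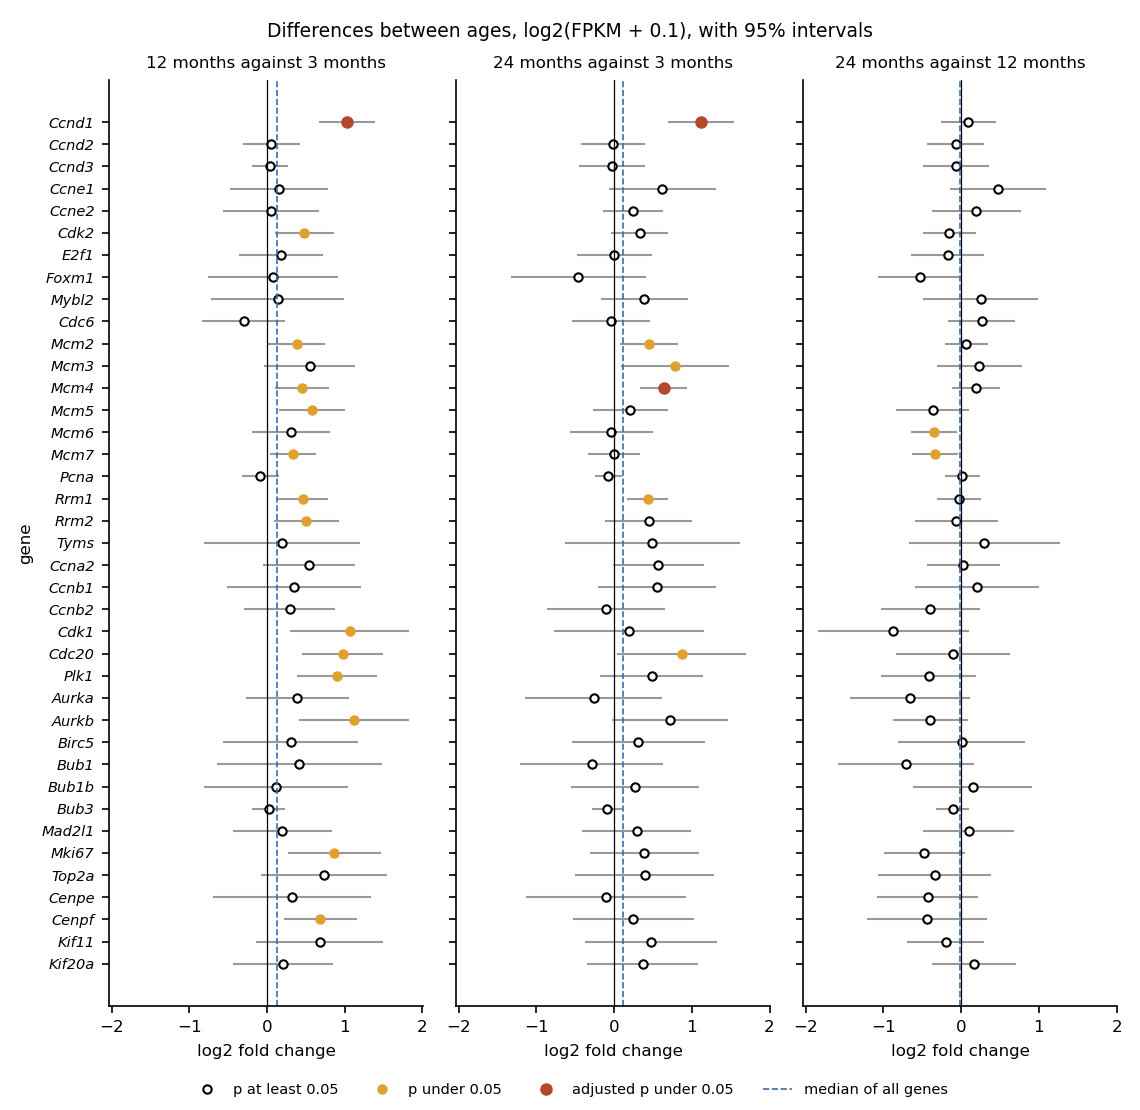
Differences between ages for the 39 members tested, as log2 fold change on the log2(FPKM + 0.1) scale (x axis) with 95% intervals from limma, ordered by role. Filled points have an unadjusted p under 0.05, large red points an adjusted p under 0.05, and the dashed line marks the median of all genes. At 12 months against 3 months 37 points lie right of 0, and at 24 months against 12 months 16 do.

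The D-type cyclins bind CDK4 and CDK6 and answer growth signals. Ccnd1 (ENSMUSG00000070348, chr7:144929931-144939925, minus strand, GRCm38) measured 29.7, 23.7, 39.2, 33.8 and 41.8 FPKM in the young mice. It measured 53.8, 71.6, 64.0, 74.4 and 75.0 FPKM at 12 months and 72.6, 94.9, 63.9, 53.1 and 81.9 FPKM in the old mice. Every 12-month-old and old mouse lay above every young mouse, and the 12-month-old and old mice overlapped. The mean was 33.6 ± 7.27 FPKM in young, 67.8 ± 8.96 at 12 months and 73.2 ± 16.1 in old mice (SD, n = 5 each). Ccnd1 rose by a log2 fold change of 1.03 (SE 0.16, adjusted p = 0.0341) between young and 12-month-old mice. Between young and old mice it rose by 1.12 (SE 0.19, adjusted p = 0.0218). Its call at 12 months did not survive the loss of young mouse 5, 6 or 8 or of 12-month-old mouse 18, 19, 20 or 21, with adjusted p from 0.0532 to 0.0937. That in old mice did not survive the loss of old mouse 31 (adjusted p = 0.0577) or 35 (adjusted p = 0.0516).

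The 2 other D-type cyclins did not pass. Ccnd2 had a mean of 3.24 ± 0.645, 3.34 ± 0.450 and 3.21 ± 0.664 FPKM at 3, 12 and 24 months (SD, n = 5 each), and Ccnd3 one of 20.1 ± 2.28, 20.6 ± 1.91 and 20.2 ± 5.02. Old mouse 35 stood apart in Ccnd3 at 11.5 FPKM, below the 20.9 to 23.9 FPKM of the other 4 old mice.

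No gene of the G1/S group of cyclin E and Cdk2 was called, nor was any transcription factor of the cycle. Cdk2, the kinase partner of cyclins E and A and the most abundant of its group, measured 3.87, 3.50, 3.67, 2.48 and 4.12 FPKM in young mice and 4.17, 3.97, 5.19, 5.17 and 6.23 FPKM at 12 months. In old mice it measured 3.91, 5.28, 3.74, 4.07 and 5.18 FPKM. Its difference at 12 months was 0.48 (SE 0.17, adjusted p = 0.194), and the ages overlapped. The cyclin E genes were low, Ccne1 at 0.037 to 0.398 and Ccne2 at 0.600 to 1.67 FPKM over all mice, and neither reached an unadjusted p under 0.05 in the 3 comparisons of all 10 mice. The transcription factors of the cycle did not reach this limit either. These were E2f1, which switches on S-phase genes, and Foxm1 and Mybl2, which act on mitotic genes. Over all mice E2f1 lay at 0.349 to 0.823 and Foxm1 at 0.128 to 0.877 FPKM. Mybl2, the most abundant of them, had a mean of 0.617 ± 0.195, 0.731 ± 0.356 and 0.807 ± 0.111 FPKM at 3, 12 and 24 months (SD, n = 5 each).

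The replication licensing genes, Cdc6 and the 6 subunits of the MCM helicase, held the second called member. At 24 against 3 months, 3 of the 7 had an unadjusted p under 0.05, where 13.8% of all genes were higher at this limit, and at 12 against 3 months 4 did, where 13.9% were. All of these were higher. Mcm4 (ENSMUSG00000022673, chr16:15623897-15637400, minus strand) measured 1.45, 1.26, 1.36, 1.62 and 1.66 FPKM in young mice. It measured 2.48, 2.24, 1.78, 1.68 and 2.06 FPKM at 12 months and 2.14, 2.17, 2.27, 2.73 and 2.41 FPKM in old mice. Every 12-month-old and old mouse exceeded every young mouse. Mcm4 rose by 0.64 (SE 0.14, adjusted p = 0.043) between young and old mice. At 12 months its difference was 0.45 (SE 0.16, adjusted p = 0.187). The old-mouse call was close to the limit, and leaving out any 1 of the 10 mice gave an adjusted p of 0.0593 to 0.0987.

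The other helicase subunits were not called. Mcm5, at 0.800, 0.596, 0.862, 0.666 and 0.909 FPKM in young and 0.961, 1.54, 1.11, 1.32 and 1.05 FPKM in 12-month-old mice, differed by 0.58 (SE 0.19, adjusted p = 0.166). All 5 of its 12-month-old mice lay above all young mice, while the old mice, at 1.18, 1.14, 0.822, 0.604 and 0.832 FPKM, spanned both. On its protein-coding transcripts alone these 2 ages overlapped, at up to 0.905 FPKM in young and from 0.820 FPKM in 12-month-old mice. Mcm2 was higher at both ages, with 0.38 (SE 0.17, adjusted p = 0.271) at 12 months. In old mice it gave 0.45 (SE 0.17, adjusted p = 0.191). Mcm3 had a mean of 0.926 ± 0.345 FPKM in the young and 1.67 ± 0.655 FPKM in the old animals (SD, n = 5 each), a difference of 0.79 (SE 0.31, adjusted p = 0.214). Without old mouse 32, Mcm2, Mcm3 and Cdc20 left the old-against-young list, which then held Ccnd1, Mcm4 and Rrm1. Cdc6, which loads the helicase onto origins, was the lowest of the group at 0.0471 to 0.216 FPKM and did not reach an unadjusted p under 0.05. Mcm6 and Mcm7 were the pair that was lower in old than in 12-month-old mice. Mcm6 had a mean of 5.30 ± 0.549 FPKM at 12 months and 4.17 ± 0.702 in old mice (SD, n = 5 each), a difference of -0.35 (SE 0.13, adjusted p = 0.632). Mcm7, the most abundant subunit, had a mean of 5.13 ± 0.856, 6.46 ± 0.749 and 5.13 ± 0.812 FPKM at 3, 12 and 24 months (SD, n = 5 each). Its differences were 0.33 (SE 0.13, adjusted p = 0.234) between young and 12-month-old and -0.34 (SE 0.13, adjusted p = 0.632) between 12-month-old and old mice.

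Among the genes of DNA synthesis, Rrm1, the large subunit of ribonucleotide reductase, was higher at both ages. It measured 2.15, 1.99, 2.23, 2.56 and 2.697 FPKM in young mice, 3.67, 2.49, 3.35, 3.02 and 3.70 FPKM at 12 months and 3.22, 3.03, 3.23, 3.30 and 2.99 FPKM in old mice. The old mice lay close together and above every young mouse, while 1 of the 12-month-old mice fell within the young range. The difference was 0.43 (SE 0.12, adjusted p = 0.0911) in old mice. At 12 months it was 0.46 (SE 0.15, adjusted p = 0.163). Its partner Rrm2, the small subunit made in S phase, had a mean of 1.18 ± 0.239 FPKM in young and 1.71 ± 0.327 FPKM in 12-month-old mice (SD, n = 5 each), a difference of 0.51 (SE 0.19, adjusted p = 0.204). Pcna, the most abundant of the group, stayed between 10.2 and 13.7 FPKM in all mice. Tyms, thymidylate synthase, was uneven, at 15.8 FPKM in old mouse 31 and 3.60 to 4.67 FPKM in the other old mice.

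**Figure D2:**
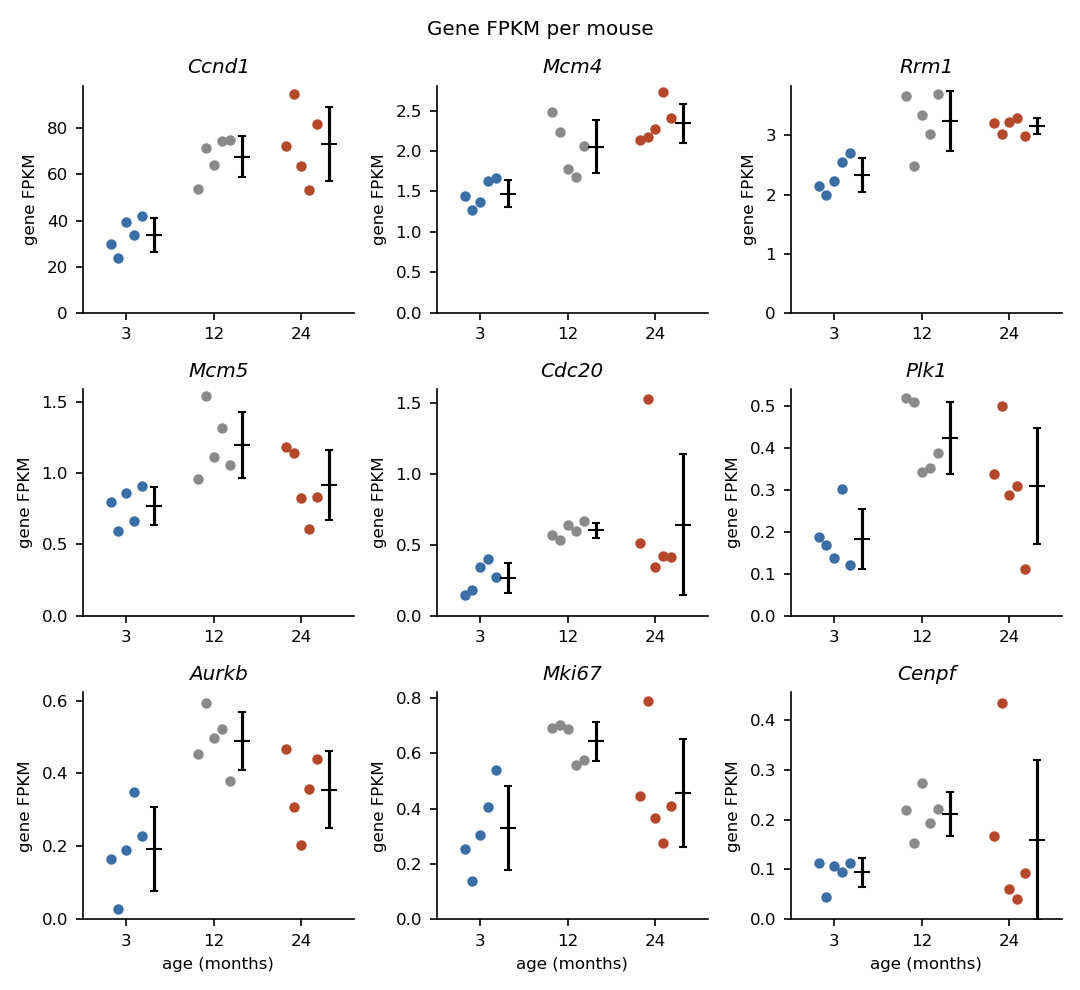
Gene FPKM of 9 members in every mouse at 3, 12 and 24 months (x axis, age; y axis, FPKM from 0), with the mean and SD of the 5 mice beside the points. In Ccnd1, Mcm4 and Rrm1 all old mice lie above all young mice, and in Cdc20, Mki67 and Cenpf the highest old mouse is number 32, at 1.53, 0.788 and 0.434 FPKM.

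The mitotic cyclins and kinases were higher at 12 months in 9 of 9 members, with a median log2 fold change of 0.54. Of these, 4 had an unadjusted p under 0.05, where 13.9% of all genes were higher at this limit, and none was called. Cdc20, the activator of the anaphase promoting complex, measured 0.149, 0.183, 0.341, 0.399 and 0.274 FPKM in young and 0.572, 0.537, 0.638, 0.598 and 0.665 FPKM in 12-month-old mice, without overlap. In old mice it measured 0.511, 1.53, 0.342, 0.419 and 0.417 FPKM, with mouse 32 far above the other 4. The difference was 0.97 (SE 0.23, adjusted p = 0.0856) at 12 months. In old mice it was 0.87 (SE 0.37, adjusted p = 0.25).

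Plk1 and Aurkb were also without overlap between young and 12-month-old mice. Plk1, Polo-like kinase 1, measured 0.188, 0.170, 0.138, 0.303 and 0.121 FPKM in young, 0.519, 0.510, 0.342, 0.353 and 0.388 FPKM in 12-month-old and 0.336, 0.499, 0.288, 0.308 and 0.112 FPKM in old mice, a difference of 0.90 (SE 0.23, adjusted p = 0.0972) at 12 months. Aurkb, the kinase of the chromosomal passenger complex, measured 0.165, 0.0277, 0.189, 0.349 and 0.227 FPKM in young, 0.454, 0.594, 0.497, 0.523 and 0.378 FPKM in 12-month-old and 0.467, 0.307, 0.204, 0.358 and 0.440 FPKM in old mice. Its difference was 1.11 (SE 0.32, adjusted p = 0.125) at 12 months. On its protein-coding transcripts alone, which carried 58.9% of the gene, this became 0.60, with an unadjusted p of 0.103, and the ages overlapped (at most 0.334 FPKM in young and at least 0.183 FPKM in 12-month-old mice). In both genes the old mice spread over the young and the 12-month-old ranges.

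Cdk1, the kinase that drives entry into mitosis, measured 0.107, 0.0110, 0.140, 0.151 and 0.180 FPKM in young, 0.436, 0.555, 0.178, 0.426 and 0.199 FPKM in 12-month-old and 0.0788, 0.469, 0.0807, 0.0208 and 0.237 FPKM in old mice. Its difference at 12 months was 1.06 (SE 0.34, adjusted p = 0.162), but 1 of the 12-month-old mice overlapped the young range and part of the level lay on a retained-intron transcript described below. Ccna2, cyclin A2, the most abundant of the group, had a mean of 1.03 ± 0.338, 1.51 ± 0.373 and 1.54 ± 0.398 FPKM at 3, 12 and 24 months (SD, n = 5 each). On its protein-coding transcripts alone the means were 0.964, 1.41 and 0.886 FPKM, and the log2 fold change between young and old mice turned from 0.57 to -0.12. That of Ccnb1 turned likewise, from 0.55 to -0.20. The B-type cyclins lay lower, Ccnb1 at 0.141 to 1.05 and Ccnb2 at 0.176 to 0.663 FPKM over all mice, as did the spindle-pole kinase Aurka at 0.142 to 1.08 and survivin, Birc5, at 0.166 to 0.951 FPKM. These 5 genes did not reach an unadjusted p under 0.05 in the main fits of 2 ages. Ccna2 reached it in old and in 12-month-old against young mice when all 15 mice were put in one fit, and in old against young mice on the TPM scale. It also did so in old against young mice without young mouse 5 or 9, and at 12 months without young mouse 9 or 12-month-old mouse 20. Aurka reached it at 12 months without young mouse 8, and was lower at it in old than in 12-month-old mice without old mouse 32.

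No spindle checkpoint gene passed the test. All 4 tested, Bub1, Bub1b, Bub3 and Mad2l1, had an unadjusted p above 0.05 in the 3 comparisons of all 10 mice. Bub3, which also has roles outside mitosis, had a mean of 11.6 ± 0.790, 11.8 ± 1.30 and 10.9 ± 0.899 FPKM at 3, 12 and 24 months (SD, n = 5 each). Bub1 lay at 0.0158 to 0.453, Bub1b at 0.155 to 1.03 and Mad2l1 at 0.237 to 0.928 FPKM over all mice. Ttk, left out of the test, lay between 0.014 and 0.241 FPKM.

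The chromosome and spindle motor genes were higher at 12 months in 6 of 6 members, with a median log2 fold change of 0.68, and 2 had an unadjusted p under 0.05, against the same 13.9%. Mki67 measured 0.254, 0.140, 0.305, 0.406 and 0.540 FPKM in young mice. It measured 0.691, 0.703, 0.687, 0.558 and 0.577 FPKM at 12 months and 0.445, 0.788, 0.365, 0.276 and 0.408 FPKM in old mice. The lowest 12-month-old mouse exceeded the highest young mouse by a narrow margin, and the old mice overlapped both ages. The difference was 0.87 (SE 0.27, adjusted p = 0.149) at 12 months. Cenpf, a kinetochore protein of late G2, measured 0.112, 0.0440, 0.107, 0.0946 and 0.114 FPKM in young, 0.218, 0.153, 0.274, 0.193 and 0.222 FPKM in 12-month-old and 0.167, 0.434, 0.0613, 0.0405 and 0.0922 FPKM in old mice. Its difference at 12 months was 0.69 (SE 0.21, adjusted p = 0.145). Top2a, the most abundant of the group, had a mean of 0.593 ± 0.275, 1.003 ± 0.349 and 0.801 ± 0.424 FPKM at 3, 12 and 24 months (SD, n = 5 each). The motor genes lay at 0.109 to 1.003 (Cenpe), 0.0224 to 0.522 (Kif11) and 0.123 to 0.565 (Kif20a) FPKM over all mice. Top2a and these 3 motors did not reach an unadjusted p under 0.05 in the main fits, where all transcripts of a gene were summed. On protein-coding transcripts alone, Top2a had a log2 fold change of 0.98 at 12 months (unadjusted p 0.0189) and Cenpe one of 0.55 (unadjusted p 0.0170). Top2a also reached this limit at 12 months without young mouse 8 and without 12-month-old mouse 21, and Kif11 did without young mouse 7.

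Single mice set much of the spread. Old mouse 32 was the highest of its age in 27 of the 39 members, and young mouse 6 the lowest of its age in 21. The summed level of the 15 mitotic genes, which are the cyclin and kinase group with the chromosome and motor group, was 5.66, 2.51, 5.26, 7.54 and 6.23 FPKM in the young mice. It was 8.93, 10.1, 8.30, 7.86 and 7.73 FPKM at 12 months and 7.10, 12.4, 5.44, 5.39 and 6.44 FPKM in the old mice. All 12-month-old mice lay above all young mice, and the old mice other than number 32 lay below the 12-month-old mice. Without old mouse 32, 9 members in place of 2 had an unadjusted p under 0.05 between old and 12-month-old mice, all lower, against 9.55% of all genes, and limma called none. These were Aurka, Bub1, Cdc20, Cdk1, Cenpf, Foxm1, Mcm6, Mcm7 and Mki67. Without young mouse 6 the count at 12 months against 3 months was 13 in place of 14. Without it the median log2 fold change there was 0.28 in place of 0.35.

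Within an age, mice that were high in Mki67 tended to be high in the other members. After the age means of log2(FPKM + 0.1) were removed, 35 of the 38 other members tested correlated positively with Mki67 over the 15 mice, with a median r of 0.52. Top2a was closest (r = 0.89), followed by Kif20a (0.79), Cdk1 (0.76) and Ccnd1 (0.76). The 15 points share library and depth within each mouse, so these values only describe the set. They include old mouse 32, highest of its age in Mki67 (0.788 FPKM), and young mouse 6, lowest of its age (0.140 FPKM). These mice were also the highest and the lowest of their age in many other members, and r was not computed without them. The same correlation was not computed for all genes, so no background stands beside the count or the median. The median r was 0.74 for the chromosome and spindle motor genes and 0.68 for the mitotic cyclins and kinases. It was 0.55 for replication licensing, 0.50 for the D-type cyclins and 0.40 for the spindle checkpoint. DNA synthesis had 0.21, the transcription factors 0.17 and the 3 genes of the G1/S cyclins and kinase 0.11.

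Dividing cells in a kidney may belong to the tissue or to blood and immune cells within it, and B cell markers also differed between ages. The summed level of 6 B and plasma cell genes was 1.23 to 3.97 FPKM in young, 3.61 to 20.98 FPKM in 12-month-old and 4.67 to 13.2 FPKM in old mice. All 6 were higher at both ages than in young mice, 1 called at 12 months, where 0.492% of all genes were, and 2 in old mice, where 2.21% were. The 6 T cell genes summed to 1.72 to 4.21, 3.71 to 5.57 and 2.48 to 7.27 FPKM, and all 6 were higher at both ages with none called. The 6 macrophage genes summed to 28.6 to 51.4, 47.4 to 92.2 and 34.4 to 69.3 FPKM, 5 of 6 were higher at each age and none was called. The 5 erythroid genes went the other way. They summed to 370 to 1041, 478 to 844 and 203 to 836 FPKM, 4 of 5 were lower at each later age and none was called. Jchain, the joining chain of secreted antibodies, made up most of the B and plasma cell sum, with means of 1.902, 7.03 and 5.36 FPKM. Ms4a1 and Mzb1 were at 0 in 1 young mouse each and the T cell gene Cd3d in 2. Old mouse 32, highest in the mitotic sum, was also the highest old mouse in the T cell sum (7.27 FPKM) and the lowest in the B and plasma cell sum (4.67 FPKM). The other ages differed in this. The 12-month-old mouse highest in the mitotic sum, number 18 (10.1 FPKM), was the lowest of its age in the T cell sum (3.71 FPKM). Young mouse 8, highest of its age in the mitotic sum (7.54 FPKM), had a T cell sum of 1.92 FPKM. Its B and plasma cell sum, 1.23 FPKM, was the lowest of its age. Markers of other tissue parts also had different levels. The 4 collecting duct genes summed to 41.8 to 170.3, 38.8 to 66.1 and 32.9 to 78.2 FPKM at 3, 12 and 24 months, and all 4 were lower at both later ages with none called. Of the 4 adrenal cortex genes, whose sum was 1.18 to 1.79, 1.99 to 2.63 and 2.12 to 3.95 FPKM, the 2 that were tested were higher at both later ages, and Mc2r, the corticotropin receptor, was called in old mice (0.0675 and 0.418 FPKM in young and old, adjusted p = 0.0367). The defining steroid enzyme genes Cyp11b1 and Cyp21a1 were at 0 in 14 and 9 of the 15 mice. The part of these cells in the levels of the proliferation genes was not tested.

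**Figure D3:**
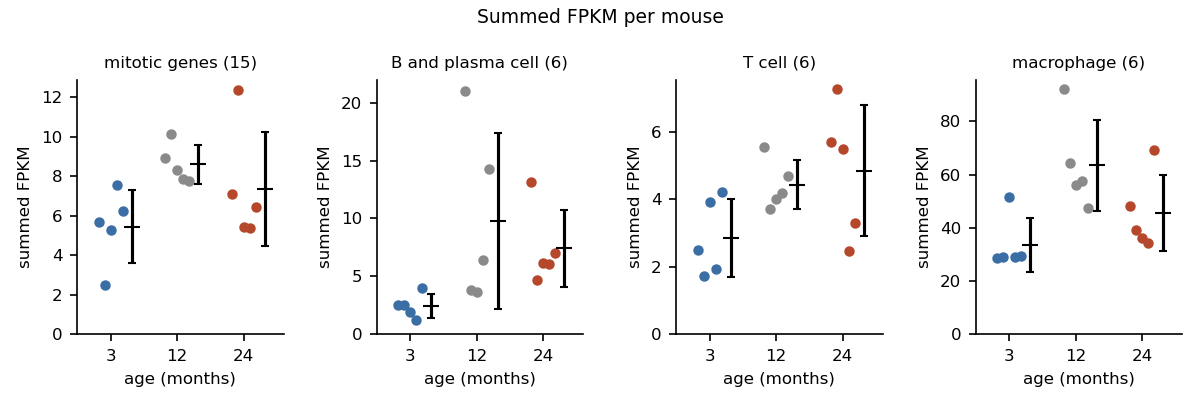
Summed FPKM of the 15 mitotic genes and of 3 immune marker lists in every mouse (x axis, age in months; y axis, summed FPKM from 0; each panel has its own scale), with the mean and SD of the 5 mice. The mitotic sum is 7.73 to 10.1 FPKM in all 12-month-old mice and at most 7.54 FPKM in young mice, and old mouse 32 stands alone at 12.4 FPKM.

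Other genes of the cell cycle were taken from 5 lists fixed by function. At an unadjusted p under 0.05, 13.8% of all genes were higher and 4.70% lower in old against young mice, and 17.8% of all genes passed at 12 months, 13.9% higher. Of 26 genes of origin firing and the replication fork, 8 had an unadjusted p under 0.05 in old against young mice and 6 at 12 months, all higher and none called. Pole, the catalytic subunit of DNA polymerase epsilon, had the smallest p, with a mean of 0.298 FPKM in the young and 0.707 FPKM in the old animals (log2 fold change 1.06, SE 0.27, adjusted p = 0.0773). Of 26 tested genes of the kinetochore, spindle and cytokinesis, 3 were higher and 2 lower in old mice, and 8 were higher and 1 lower at 12 months, at an unadjusted p under 0.05. Spc24, a subunit of the NDC80 complex that holds microtubules at the kinetochore, was the 1 gene of these lists called, with a mean of 0.188 FPKM in the young and 0.733 FPKM in the old animals (log2 fold change 1.64, SE 0.31, adjusted p = 0.0326). It lay at 0.025 to 0.325 FPKM in the young and 0.606 to 0.807 FPKM in the old animals.

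The lists of CDK inhibitors and pocket proteins, of MuvB and repressor E2F subunits and of the anaphase promoting complex gave no call. Of 10 tested CDK inhibitors and pocket proteins, 3 were higher at an unadjusted p under 0.05 in old and 3 at 12 months, none was lower at this limit and none was called. Rbl1, the pocket protein p107, had the smallest p, with a mean of 2.33 FPKM in the young and 3.50 FPKM in the old animals (log2 fold change 0.58, SE 0.17, adjusted p = 0.116). Of 9 subunits of MuvB and repressor E2F complexes, 1 was higher and 1 lower in old mice at an unadjusted p under 0.05. Lin9, a MuvB subunit, had the smallest p, with a mean of 1.98 FPKM in the young and 2.87 FPKM in the old animals (log2 fold change 0.52, SE 0.12, adjusted p = 0.0606). Of 11 subunits of the anaphase promoting complex, 2 were higher in old mice at an unadjusted p under 0.05, and Anapc10 had the smallest p, with a mean of 1.65 FPKM in the young and 2.48 FPKM in the old animals (log2 fold change 0.57, SE 0.19, adjusted p = 0.152). At 12 months 1 of the 11 was higher at this limit and none was lower.

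The table holds transcripts, and these showed where a gene's level came from. The 40 members had 201 transcripts, 196 of them annotated in Ensembl and 5 assembled from the reads, and 73 of the 201 are annotated as retaining an intron. Protein-coding transcripts carried 84.0% of the members' summed FPKM. In 19 members they carried over 80%, and in 3 (Foxm1, Cdc6 and Tyms) under 50%. When genes were summed from protein-coding transcripts alone, a step added after the data were seen, 13 of 36 members had an unadjusted p under 0.05 at 12 months, against 14.7% of all genes, and 4 in old mice, against 14.2%. No member was then called, with Ccnd1 at an adjusted p of 0.0501 in old and 0.0760 in 12-month-old mice and Mcm4 at 0.116 in old mice.

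Cyclin D1 rested on 1 transcript. ENSMUST00000093962, the protein-coding form, made up 90.7% of the gene and measured 29.5 ± 7.18, 62.0 ± 7.42 and 67.0 ± 13.7 FPKM at 3, 12 and 24 months (SD, n = 5 each). In Cdk1, the difference at 12 months was small on the protein-coding form. ENSMUST00000020099, which codes for the kinase, measured 0.110 ± 0.0597 FPKM in young and 0.135 ± 0.0549 FPKM in 12-month-old mice. The retained-intron transcript ENSMUST00000124054 was at 0 FPKM in each of the 5 young mice and at 0.275, 0.427, 0, 0.213 and 0 FPKM in the 12-month-old mice. Retained-intron transcripts of Cdk1 and assembled ones of Mcm7 thus enter their gene sums. Summed from protein-coding transcripts, the log2 fold change of Cdk1 at 12 months was 0.18 and its unadjusted p 0.526. For Mcm7 it was 0.06, with an unadjusted p of 0.864. Part of the 12-month level of Mcm7 lay on the assembled transcript MSTRG.29031.1, which was 0.030 to 4.84 FPKM in the 12-month-old mice, and without assembled transcripts its log2 fold change turned to -0.02 (adjusted p = 0.974).

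Between old and young mice, limma called none of the 93 member transcripts tested at an adjusted p under 0.05, where 0.0603% of all 91284 transcripts were called. At an unadjusted p under 0.05 there were 11, against 9.62% of all transcripts. The smallest p was that of the main Ccnd1 transcript ENSMUST00000093962, with a log2 fold change of 1.19 (adjusted p = 0.117). The gene level of Bub3 hid opposite differences between its transcripts. Its retained-intron transcript ENSMUST00000209131 had a mean of 1.23 FPKM in the young and 2.93 FPKM in the old animals (log2 fold change 1.23, adjusted p = 0.305). Its main protein-coding transcript ENSMUST00000084502, named after its values were seen, had 7.23 and 4.21 FPKM (log2 fold change -0.85, adjusted p = 0.431). The protein-coding Cdk2 transcript ENSMUST00000026416 had 0.772 and 1.88 FPKM (log2 fold change 1.12, adjusted p = 0.320). Another protein-coding Cdk2 transcript, ENSMUST00000026415, named after its values were seen, went the other way. It had 1.12 and 0.694 FPKM (log2 fold change -0.62, adjusted p = 0.645). Summed over its protein-coding transcripts, Cdk2 had a log2 fold change of 0.38 by limma (unadjusted p 0.152).

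The other transcripts past a log2 fold change of 1 and an unadjusted p of 0.05 were minor ones. The noncoding Pcna transcript ENSMUST00000136676 was at 0 in every young mouse and in 1 of the old mice, and its mean in old mice was 0.343 FPKM. Ccna2 ENSMUST00000156575 had a mean of 0.044 FPKM in the young and 0.580 FPKM in the old animals, of which old mice 32 and 34 carried 1.55 and 1.03 FPKM. The retained-intron transcripts Ccnd1 ENSMUST00000135985 and Mcm2 ENSMUST00000204217 had log2 fold changes of 1.15 and -1.07. Transcripts of 1 gene share reads, so that a shift between them also depends on how reads were divided.

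**Figure D4:**
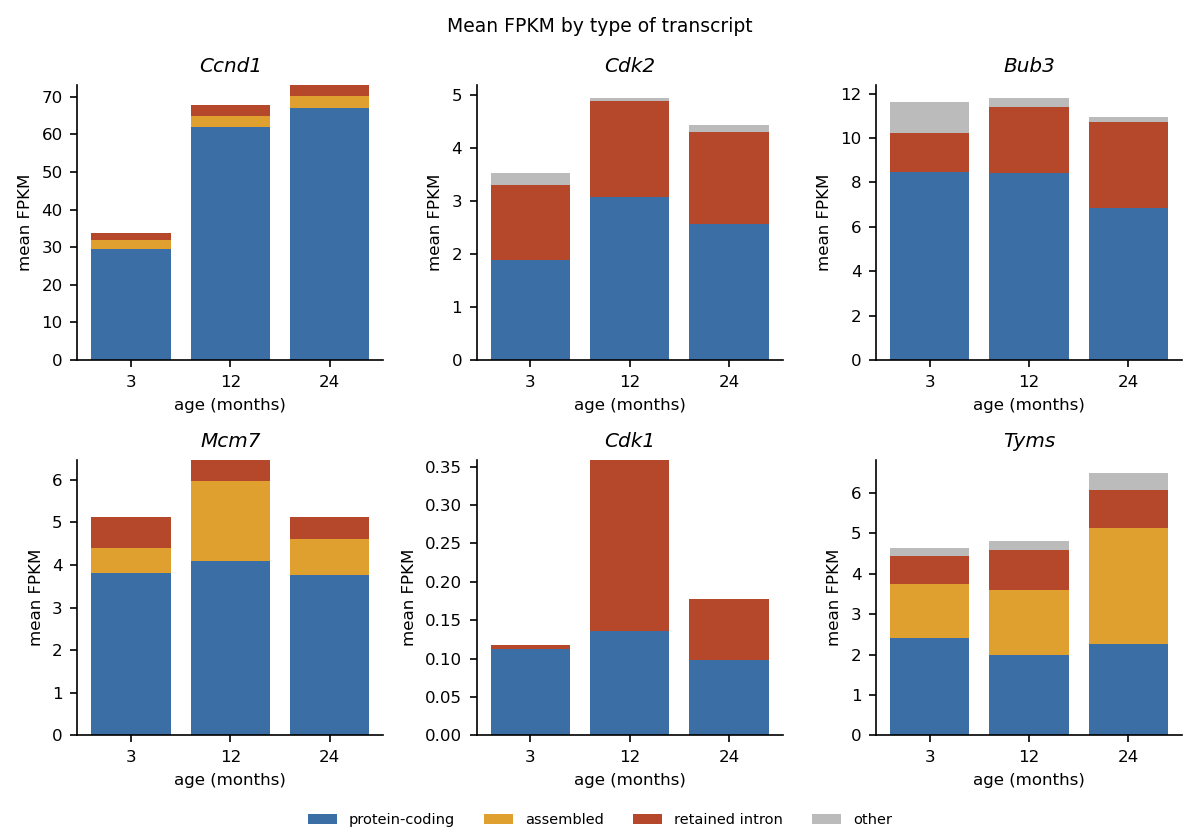
Mean FPKM of 6 members at 3, 12 and 24 months (x axis, age; y axis, mean FPKM of 5 mice from 0), stacked by the annotated type of the transcript, without error bars. In Ccnd1 the protein-coding part grows from 29.5 to 67.0 FPKM between young and old mice, and in Cdk1 the part above the protein-coding one is the retained-intron share, highest in the 12-month-old mice.

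Circular RNAs, closed loops of spliced exons, were found for 4 members, Kif11, Bub1b, Mcm6 and Ccnb2, with 6 circles in all. edgeR called none of the 6 between old and young mice, where 13.3% of 11924 circles were called, and none had an unadjusted p under 0.05, where 28.8% of all circles did. DESeq2 also called none. The smallest unadjusted p was 0.0796, for a 2-exon circle of Bub1b with estimated counts of 0.5 to 4.70 in young and 2.50 to 11.0 in old mice. The most abundant was a 9-exon circle of Mcm6, with estimated counts of 159.7, 112, 149.9, 122 and 200.5 in young and 194, 168, 131, 132 and 204 in old mice. Its log2 fold change was -0.01 (adjusted p = 0.980), beside -0.04 for the linear gene in the same mice.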

How the data were processed

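Kidney RNA of 15 mice was sequenced with 1 library per mouse. Per the labels, ribosomal RNA was depleted and a stranded kit was used, while the study's methods describe oligo(dT) beads. The authors trimmed reads with Cutadapt, aligned them to GRCm38 with Ensembl annotation by HISAT2, and assembled and quantified transcripts with StringTie, and the submitters' processing notes name TopHat2, TopHat and StringTie. The deposited tables give FPKM and mean coverage (signal per base) for each transcript. The authors also deposited FPKM and estimated counts for circular RNAs, whose method is not given in the sources used here. Ages came from the age labels, because titles carry the same prefix at every age, and columns were matched by mouse number. 0 columns of single samples were left unmapped.

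A gene's FPKM was the sum over its transcripts of class code =, c, j or o, of which the members had only = and j. limma (3.58.1, R 4.3.3) with a mean-variance trend was run on log2(FPKM + 0.1) for genes with a mean of at least 0.1 FPKM over the 15 mice, with the 10 mice of 2 ages in each fit. Fold changes are on this scale, which understates the change of low genes. P-values were adjusted by Benjamini-Hochberg over all genes tested, and a gene was called at an adjusted p under 0.05. Transcripts were tested likewise. Circular RNAs above 0 in at least 5 of 10 mice were tested with edgeR (4.0.16, quasi-likelihood, TMM) on estimated counts rounded to whole numbers, with DESeq2 (1.42.0) as an alternative. Both steps were tested on simulated data. Levels were turned into read equivalents as coverage times transcript length over 150 bases. Nothing in the labels says which mice shared a cage, litter or extraction.

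The members, the other gene lists and the markers were chosen with earlier results of these data known. Per-mouse or per-age values are given for members that were called, had an unadjusted p under 0.05 in any comparison or were the most abundant of their role, and ranges or counts for the rest. Of the other lists, each called gene and the gene with the smallest p in old against young mice are named. Member transcripts are named at an unadjusted p under 0.05 with a log2 fold change beyond 1 in size. The circles named are the most abundant one and, chosen after its values were seen, the one with the smallest p. Alternatives were other pseudocounts, filters, scalings, class codes, fits and each mouse left out. Gene positions are from GENCODE M21, and promoter sequences are from RefSeq (GRCm38.p6).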

Additional observations from a re-analysis of the deposited data

Results flagged for a closer look

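In 12 of 117 groups of 5 mice (39 members at 3 ages), the highest or lowest mouse stood further from its nearest neighbour than Dixon's 95% limit of 0.71 of the group's range. Chance flags about 5% of groups. Old mouse 32 was the high value in 3 of them, E2f1 (0.707 FPKM), Ccna2 (2.23 FPKM) and Cdc20 (1.53 FPKM). Tyms was high in 12-month-old mouse 19 (9.46 FPKM) and in old mouse 31 (15.8 FPKM), and in both most of the level lay on the assembled transcript MSTRG.26971.3, at 5.73 and 11.8 FPKM. Old mouse 35 was low in Ccnd3 (11.5 FPKM), and old mouse 33 was high in Ccne1 (0.398 FPKM). Among the young mice, mouse 9 was high in Ccne1 (0.212 FPKM), mouse 5 was low in Mybl2 (0.273 FPKM) and mouse 6 was low in Cenpf (0.0440 FPKM). Among the 12-month-old mice, mouse 17 was high in Bub1b (1.03 FPKM) and mouse 18 in Kif20a (0.399 FPKM).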

How the results depend on the processing

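Of the 2 members called in old against young mice, 1 was left (Ccnd1) with no filter on low FPKM, with a mean of at least 1 FPKM, with median-ratio scaling and with class code = alone, and 0 with protein-coding transcripts alone. Of the 1 called at 12 months, 0 were left with class code = alone (adjusted p of Ccnd1 0.0504) and with protein-coding transcripts alone. At an unadjusted p under 0.05, 7 of the 16 members with a mean of at least 1 FPKM were left at 12 months in place of 14 of 39. Between old and 12-month-old mice the 2 became 0 with values scaled to 1 common sum per mouse (TPM), and 1 with class code = alone, with all 15 mice in one fit and with protein-coding transcripts alone. Mcm7 turned from 0.33 to -0.025 at 12 months with class code = alone. With 1 mouse left out at a time, the members called ranged from 0 to 1 in old against young mice, from 0 to 1 at 12 months, and stayed 0 between old and 12-month-old mice, and the counts at an unadjusted p under 0.05 ranged from 3 to 7, from 11 to 16 and from 0 to 9. The 9 came without old mouse 32, and the 0 without 12-month-old mouse 18 or old mouse 33 or 34. Member transcripts called ranged from 0 to 1 (1 without old mouse 35), and circles stayed at 0. Median-ratio scaling moved the median of all genes by -0.04 between young and old mice. No paired analysis was possible because no mouse number occurs at more than 1 age. Most mitotic genes rest on few reads in a mouse (median read equivalents of 22.1 for Cdk1 and 30.2 for Plk1), which limits what 5 mice per age can show for them. The labels give no litter, cage or extraction batch, so these could not be told apart from age.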
